A study of Mus musculus with 35 samples.

Results

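Imprinted genes are expressed mainly from the copy inherited from a single parent. The set described here has 10 of them, H19, Igf2r, Grb10, Ndn, Peg3, Plagl1, Mest, Dlk1, Impact and Gnas, which were chosen by name. They were looked up in an RNA-seq table of hematopoietic stem/progenitor cells (HSPCs), which lists 11982 gene names, and 6 of the 10 have an entry there. JMJD1B, encoded by Kdm3b, is a demethylase that acts on H3K9me2 and H4R3me2s, which are histone marks linked to gene silencing. RNA was compared between wild-type (WT) HSPCs, 2 libraries, and JMJD1B-/- HSPCs, 2 libraries. All 4 libraries came from bone marrow of mice of the mixed strain 129P2xC57BL/6J. The study used mice of 20 to 40 weeks and of both sexes, and the age of the animals behind each library is not given. The JMJD1B-/- allele is a gene-trap knockout that was brought in through embryonic stem cells of the first of these strains. The replicates are given as biological replicates. Whether a library holds the cells of a single mouse or of a pool is not given in the sources used here, and p-values measure the spread between these libraries.

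An imprint is a DNA methylation mark placed in the egg or the sperm at a differentially methylated region, and it is kept on that parental copy through the cell divisions of the embryo. The methylated region then decides which copy of the nearby genes is read, often by way of a long noncoding RNA or an insulator. Many imprinted genes control growth and are turned down in most adult tissues, while a network of them, H19 among others, has been linked to the quiescence of hematopoietic stem cells. RNA-seq values of this kind add both parental copies together, so the parental origin of the RNA was not measured. DNA methylation was not measured in the files used here.

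Expression was given as RPKM, a read count scaled to the length of the transcript and the size of the library. Library size was not stated, and whole-number steps in the values of weakly expressed genes put it at 17500000 (WT replicate 1), 24600000 (WT replicate 2), 6100000 (JMJD1B-/- replicate 1) and 21000000 reads (JMJD1B-/- replicate 2). For a 1 kb transcript, a floor of 3 reads is then 0.171, 0.122, 0.491 and 0.143 RPKM in the same order. JMJD1B-/- replicate 1 was thus the shallowest library, and 156 entries of the table are listed at 0 there, against 43 to 53 entries in each of the other 3. WT replicate 2 stood apart in its sex-linked transcripts. Xist, the noncoding RNA that coats the inactive X chromosome of female cells, had 332 RPKM in WT replicate 2 and no more than 0.0510 RPKM elsewhere. Ddx3y, a gene of the Y chromosome, had 0.411 RPKM in WT replicate 2 and 25.5 to 29.3 RPKM in the others. The labels give no sex, and its part in the differences below was not tested.

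Kdm3b, the targeted gene, had 31.0 and 24.3 RPKM in WT and 4.00 and 4.63 RPKM in JMJD1B-/- HSPCs. Each JMJD1B-/- value was far below either WT value, as the labels require. The mean fell from 27.6 ± 4.73 to 4.31 ± 0.447 RPKM (SD, n = 2 each), which left 15.6% of the WT level. On the log2(RPKM + 0.1) scale, its fold change had a log2 of −2.65 with a standard error (SE) of 0.24, and limma gave an adjusted p = 0.0314. It lay between −2.82 and −2.42 under 13 other settings, although the adjusted p ranged from 1.08e-06 to 0.796 there. It was above 0.05 with median-ratio scaling, with quantile normalization, with limma without a trend, with a gene-by-gene test, and without either WT library. Of the 11863 genes tested, 5 (0.0421%) passed the adjusted threshold of 0.05 and 1203 (10.1%) had an unadjusted p under 0.05.

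The 6 listed genes were Igf2r, Grb10, Ndn, Mest, Impact and Gnas, and all of them were tested, since their RPKM averaged 0.5 or more over the 4 libraries. H19, Peg3, Plagl1 and Dlk1 have no entry and were not analysed here. A gene entered the table when it reached 1 RPKM in at least 1 library. Ndn did so in WT replicate 1 alone, so an entry for it required a high WT value, and its mean over the 4 libraries, 0.510 RPKM, was close to the limit for testing. For that reason no count or median over the listed genes is used below as support for a direction.

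Levels per transcript length spanned a wide range. In the WT libraries, Gnas had the highest mean RPKM, 53.5 ± 3.34 (SD, n = 2), above 92.4% of all listed genes. Impact followed with 15.6 ± 1.19, then Grb10 with 9.40 ± 1.27 and Igf2r with 6.94 ± 0.820 (SD, n = 2 each). Mest had 2.80 ± 0.810 and Ndn 0.948 ± 0.470 (SD, n = 2 each), the latter above 5.07% of the listed genes. No neighbours in this order overlapped between the WT libraries. In the JMJD1B-/- libraries, Gnas again had the highest level, but the levels of Grb10, Impact and Igf2r overlapped, with means of 15.4 ± 6.83, 11.7 ± 1.23 and 11.2 ± 1.89 RPKM (SD, n = 2 each). Mest and Ndn were the lowest in both genotypes.

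**Figure D1:**
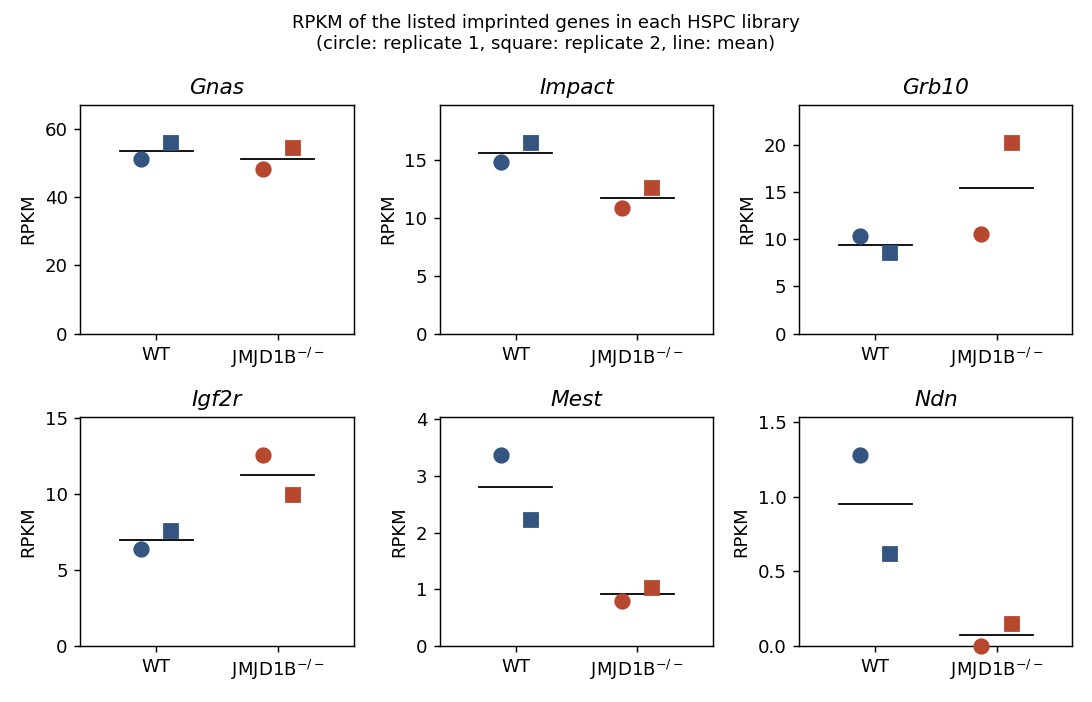
RPKM (vertical axis, from 0) of the 6 listed imprinted genes in the WT and JMJD1B-/- HSPC libraries, with a circle for replicate 1, a square for replicate 2 and a line for the mean of each genotype. Mest, Ndn and Impact lie lower and Igf2r and Grb10 higher in both JMJD1B-/- libraries than in both WT libraries, and the genotypes overlap for Gnas.

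Mest, Ndn and Impact are expressed from the paternal copy. Mest encodes a hydrolase-like protein of the endoplasmic reticulum and is best known from mesodermal tissues of the embryo. It had 3.37 and 2.23 RPKM in WT and 0.787 and 1.03 RPKM in JMJD1B-/- HSPCs. It was lower in each JMJD1B-/- library than in either WT library, and the gap exceeded the spread within the JMJD1B-/- pair. The JMJD1B-/- mean of 0.908 ± 0.171 RPKM was 32.4% of the WT mean of 2.80 ± 0.810 RPKM (SD, n = 2 each). The log2 fold change was −1.51 (SE 0.51, 95% interval −2.70 to −0.31), with an unadjusted p under 0.05 and an adjusted p = 0.420 in limma, so the difference was not called. A constant of 1 in place of 0.1 gave −0.98. Leaving out single libraries gave −1.80 to −1.22, and the unadjusted p was above 0.05 without either WT library. In bulk RNA, fewer cells of a type that expresses a gene and less of its RNA per cell cannot be told apart.

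Ndn encodes necdin, a protein of the MAGE family that restrains cell growth and has been linked to the quiescence of hematopoietic stem cells. It had 1.28 and 0.616 RPKM in WT HSPCs. In JMJD1B-/- HSPCs it was at 0 in replicate 1 and at 0.144 RPKM in replicate 2. The genotypes did not overlap, but all 4 values were low. The smallest whole numbers of reads that fitted were 37 and 25 in the WT libraries and 0 and 5 in the JMJD1B-/- libraries. These numbers were estimated from the depths. Exact Poisson 95% intervals, which cover counting error only, ran from 0.902 to 1.77 and from 0.399 to 0.909 RPKM in the WT libraries. They ran from 0 to 0.366 and from 0.0468 to 0.336 RPKM in JMJD1B-/- HSPCs. Because a high WT value was needed for the entry, nothing is read from the distance between the genotypes. The absence of reads in JMJD1B-/- replicate 1 still allowed a level above that of JMJD1B-/- replicate 2. Its fitted log2 fold change was −2.67 (SE 1.23, 95% interval −5.56 to 0.22, adjusted p = 0.516 in limma), and its interval included 0. Its size followed the constant added before taking logs, with −0.84 at 1 and −4.52 at 0.01. Leaving out single libraries gave −3.31 to −2.03. Without a trend, the unadjusted p was 0.00732 and the adjusted p was 0.369 in limma.

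Impact encodes an inhibitor of GCN2, the kinase that slows translation when amino acids run short. It had 14.8 and 16.5 RPKM in WT and 10.8 and 12.6 RPKM in JMJD1B-/- HSPCs. Each JMJD1B-/- value was below either WT value. The JMJD1B-/- mean was 74.8% of the WT mean. A log2 fold change of −0.42 (SE 0.22, 95% interval −0.93 to 0.09) did not pass either threshold (adjusted p = 0.570 in limma). Leaving out single libraries gave −0.52 to −0.31.

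Igf2r and Grb10 are expressed from the maternal copy in most tissues of the mouse. Igf2r encodes the receptor that takes up IGF2 for breakdown in lysosomes and carries mannose 6-phosphate tagged enzymes. It had 6.36 and 7.53 RPKM in WT and 12.6 and 9.90 RPKM in JMJD1B-/- HSPCs. Each JMJD1B-/- value was above either WT value, and the gap between the genotypes exceeded the spread within the WT libraries but not that within the JMJD1B-/- libraries. The mean was 6.94 ± 0.820 RPKM in WT and 11.2 ± 1.89 RPKM in JMJD1B-/- HSPCs (SD, n = 2 each), a ratio of 1.62. In limma, the log2 fold change was 0.68 (SE 0.26, 95% interval 0.08 to 1.28), with an unadjusted p under 0.05 and an adjusted p = 0.445 in limma. It was not called. Leaving out single libraries gave 0.51 to 0.85, and the unadjusted p rose above 0.05 without WT replicate 1, WT replicate 2 or JMJD1B-/- replicate 1 and with the gene-by-gene test.

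Airn, the noncoding RNA that silences the paternal Igf2r copy in the embryo, starts within Igf2r and runs in the opposite direction. It had 2.87 and 3.61 RPKM in WT and 4.11 and 5.09 RPKM in JMJD1B-/- HSPCs. These levels too did not overlap, and the log2 fold change of 0.49 (SE 0.33) passed neither threshold (adjusted p = 0.648 in limma). The library kit does not mark strand, so reads of the overlapping stretch of Igf2r and Airn cannot be told apart.

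Grb10 encodes an adaptor that binds the insulin and IGF1 receptors and dampens their signals. It had 10.3 and 8.50 RPKM in WT and 10.5 and 20.2 RPKM in JMJD1B-/- HSPCs. JMJD1B-/- replicate 1 lay just above WT replicate 1, and JMJD1B-/- replicate 2 stood apart from the other 3 libraries. Its log2 fold change of 0.64 (SE 0.33, 95% interval −0.14 to 1.41, adjusted p = 0.570 in limma) passed neither threshold, and it rested on that library. With the replicate block, its unadjusted p was 0.0391 in limma. The log2 fold change was 0.17 without JMJD1B-/- replicate 2. Without JMJD1B-/- replicate 1 it was 1.10 with an adjusted p = 0.0256 in limma, the lowest of a range up to 1 over the alternatives. In that fit, which assumes that the lone JMJD1B-/- library varies like the WT libraries, 630 of all genes tested were called.

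Gnas encodes the stimulatory G protein alpha subunit, which couples hormone receptors to adenylyl cyclase. Its locus has several promoters, some read from the maternal copy (Nesp), some from the paternal copy (Gnasxl) and the main one from both copies in most tissues. The single entry of the table cannot separate these transcripts. Gnas had 51.1 and 55.9 RPKM in WT and 48.1 and 54.4 RPKM in JMJD1B-/- HSPCs. The genotypes overlapped. With a log2 fold change of −0.06 (SE 0.18, adjusted p = 0.929 in limma), its 95% interval from −0.48 to 0.35 held changes of either sign. Its sign turned without WT replicate 2, at 0.00031, and without JMJD1B-/- replicate 1, at 0.026.

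Nespas, the paternally expressed antisense RNA of the same locus, had 1.31 and 0.863 RPKM in WT and 3.13 and 2.15 RPKM in JMJD1B-/- HSPCs. Each JMJD1B-/- value was above either WT value, and the means had a ratio of 2.43. Its log2 fold change was 1.21 (SE 0.51), with an unadjusted p under 0.05 and an adjusted p = 0.486 in limma. The unadjusted p was above 0.05 without WT replicate 1, WT replicate 2 or JMJD1B-/- replicate 1, with the gene-by-gene test, with the replicate block and with a mean of at least 1 RPKM. Reads of Nespas and of the Nesp exons that it overlaps cannot be told apart without strand.

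Of the 6 listed genes, 3 (Mest, Ndn and Impact) were lower in each JMJD1B-/- library than in either WT library, where 22.7% of all genes tested did so. Another 2 (Igf2r and Grb10) were higher in each, where 20.1% of all genes tested did so. At an unadjusted p under 0.05, 1 was lower and 1 was higher, against 10.1% of all genes in either direction, and 0 passed the adjusted threshold in limma or in the gene-by-gene test. Their log2 fold changes ran from −2.67 to 0.68 with a median of −0.24, beside −0.02 over all genes tested. That median is taken over genes with differences in opposite directions, and with Ndn left out by a stricter limit on low values it was −0.06.

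The 6 genes were set beside 72 other imprinted genes, listed by the parental copy that is expressed where they are imprinted. Some of these genes are imprinted only in the placenta or the brain, so their status in HSPCs was not known from these data. The table lists 35 of them, and 33 were tested. At an unadjusted p under 0.05, 3 were lower (Peg13, Sgce and Phactr2) and 1 was higher (Nespas), close to the 10.1% of all genes, and 0 passed the adjusted threshold in limma. Of the 33, 8 were lower and 7 higher in each JMJD1B-/- library than in either WT library, near the 22.7% and 20.1% of all genes, and 18 overlapped. The median log2 fold change was −0.12.

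Of 29 further genes expressed from the paternal copy, 12 were listed and 10 were tested, with 6 log2 fold changes below 0, 4 above 0 and a median of −0.23. Of 43 expressed from the maternal copy, 23 were listed and tested, with 16 below 0, 7 above 0 and a median of −0.08. Over all genes tested, 6285 of 11863 were below 0. In this wider set, then, genes of either parental class were found on both sides of 0. At an unadjusted p under 0.05 in limma, 3 of the 10 paternal and 1 of the 23 maternal genes passed, beside 10.1% of all genes. Of the paternal genes, 5 were lower and 3 higher in each JMJD1B-/- library than in either WT library, with 3 and 4 of the maternal genes. Over all genes tested the shares were 22.7% and 20.1%. A difference between the classes was not tested. Among the genes without an entry were Igf2, the partner of H19 at its locus, and Meg3, the partner of Dlk1, and neither was analysed here.

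**Figure D2:**
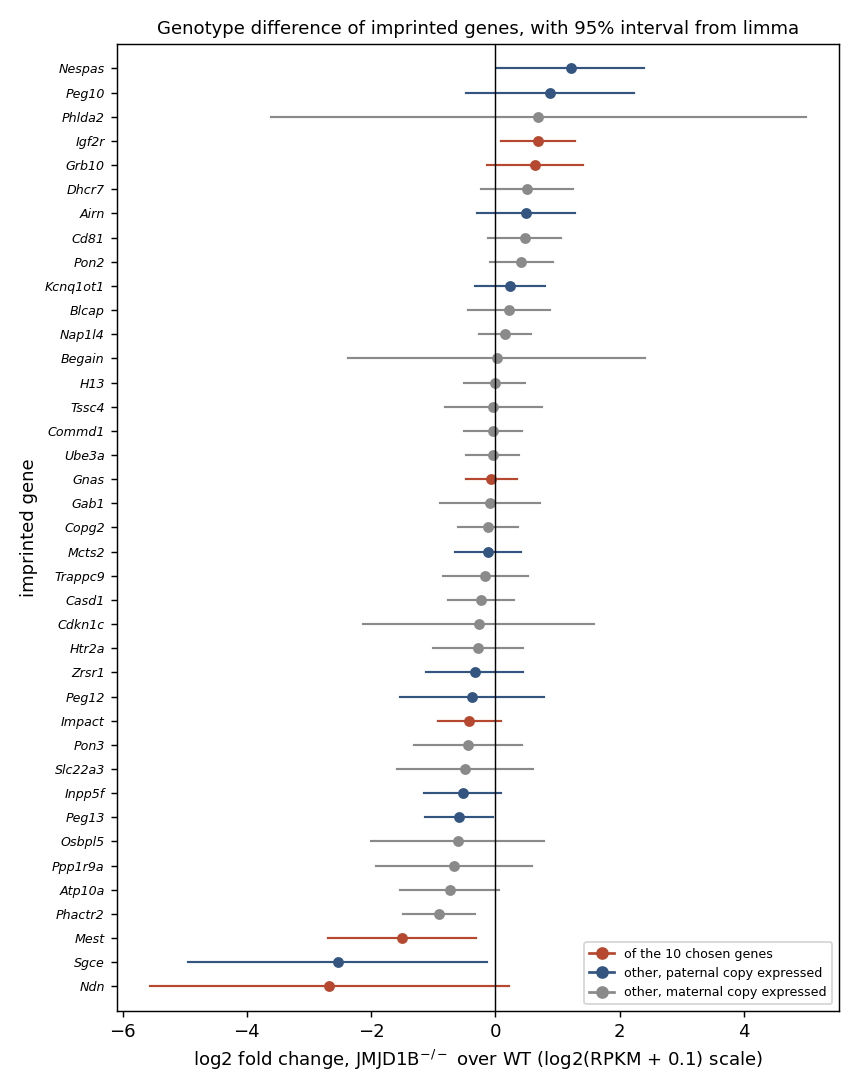
Log2 fold change of JMJD1B-/- over WT HSPCs on the log2(RPKM + 0.1) scale (horizontal axis) for each of the 39 imprinted genes tested (vertical axis), as a point with its 95% interval from limma, in red for the chosen genes, blue for other paternally and grey for other maternally expressed genes. On this scale, Ndn (−2.67) and Sgce (−2.54) are lowest and Nespas (1.21) is highest, and most intervals include 0. The sizes for Ndn and Sgce follow the constant added before taking logs.

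Sgce, the gene of epsilon-sarcoglycan, had 2.84 and 3.26 RPKM in WT and 0.0714 and 1.61 RPKM in JMJD1B-/- HSPCs. Both JMJD1B-/- libraries were lower, but by very different amounts. For Sgce, a log2 fold change of −2.54 (SE 1.03, adjusted p = 0.477 in limma) became −0.88 without JMJD1B-/- replicate 1, the shallowest library, and −4.20 without JMJD1B-/- replicate 2, where it was called (adjusted p = 0.00308 in limma, in a range up to 1 over the alternatives). The size of this change also followed the constant added before the logarithm, with −1.27 at 1 and −3.07 at 0.01. In JMJD1B-/- replicate 1, Sgce lay below the floor of 3 reads for a 1 kb transcript, and no whole numbers of reads fitted its values, so its reads are not given. The unadjusted p of Sgce was above 0.05 in each of the other 3 fits without a library and in 5 further alternatives, so that it passed in 5 of 13. Its neighbour Peg10, a gene derived from a retrotransposon that shares its imprinted promoter region, had 0.926 and 3.01 RPKM in WT and 3.28 and 3.09 RPKM in JMJD1B-/- HSPCs. WT replicate 1 was the low library for Peg10, and the pair thus showed no shared direction.

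Peg13 is a noncoding RNA that lies in an intron of Trappc9. It had 12.7 and 11.0 RPKM in WT and 8.35 and 7.35 RPKM in JMJD1B-/- HSPCs, without overlap (log2 fold change −0.59, SE 0.24, adjusted p = 0.477 in limma). Its unadjusted p was above 0.05 without WT replicate 1, WT replicate 2 or JMJD1B-/- replicate 2, with quantile normalization, with the gene-by-gene test and with the replicate block. Trappc9, its host, had 8.72 and 6.10 RPKM in WT and 5.92 and 7.16 RPKM in JMJD1B-/- HSPCs, and these overlapped. Phactr2, a regulator of protein phosphatase and actin, had 12.01 and 10.5 RPKM in WT and 5.61 and 6.31 RPKM in JMJD1B-/- HSPCs. Its JMJD1B-/- mean was 52.9% of the WT mean, and the log2 fold change was −0.91 (SE 0.25, adjusted p = 0.318 in limma). Its unadjusted p was above 0.05 without WT replicate 1. Without JMJD1B-/- replicate 2 the log2 fold change was −0.99 and was called (adjusted p = 0.0446 in limma, in a range up to 1), when 669 of all genes were.

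The most abundant of the other imprinted genes were Nap1l4, Ube3a and Cd81 of the maternal list and Mcts2 and Kcnq1ot1 of the paternal list. Nap1l4, a histone chaperone gene, had 75.3 and 89.6 RPKM in WT and 88.2 and 94.4 RPKM in JMJD1B-/- HSPCs. Ube3a, a ubiquitin ligase gene that is imprinted in neurons, had 45.3 and 52.8 RPKM in WT and 44.7 and 50.4 RPKM in JMJD1B-/- HSPCs. The genotypes overlapped for both genes. Cd81, a tetraspanin gene, had 35.8 and 42.9 RPKM in WT and 43.4 and 68.2 RPKM in JMJD1B-/- HSPCs. As for Grb10, the difference came mainly from JMJD1B-/- replicate 2. Its log2 fold change of 0.47 (SE 0.25) was 0.14 without that library and 0.80 without JMJD1B-/- replicate 1, where it was called (adjusted p = 0.0447 in limma, in a range up to 1).

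Kcnq1ot1, the long noncoding RNA that silences the paternal copies of its neighbours, had 13.1 and 13.2 RPKM in WT and 13.1 and 18.4 RPKM in JMJD1B-/- HSPCs. Cdkn1c, which encodes the cell-cycle inhibitor p57 and belongs to the genes that Kcnq1ot1 controls, had 0.823 and 0.766 RPKM in WT and 1.01 and 0.397 RPKM in JMJD1B-/- HSPCs. The genotypes overlapped for both. Phlda2, another gene of that cluster, was listed at 0 in WT replicate 1 and JMJD1B-/- replicate 1 and had 0.606 and 1.74 RPKM in the replicates numbered 2. The smallest whole numbers of reads that fit the values of Phlda2 are 11 and 27, and no difference between the genotypes can be read from these values. Mcts2 and Zrsr1 are retrocopies inside introns of H13 and Commd1, and reads shared with the genes they were copied from could not be separated here. Mcts2 had 18.2 and 13.5 RPKM in WT and 14.5 and 14.3 RPKM in JMJD1B-/- HSPCs, which overlapped. H13, its host, had 13.2 and 13.8 RPKM in WT and 12.95 and 13.8 RPKM in JMJD1B-/- HSPCs.

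Snrpn and Snurf, which share a transcript at the locus that also holds Ndn, averaged under 0.5 RPKM and were not tested in the main fit. Snrpn was listed at 1.11 RPKM in WT replicate 1, at 0.525 RPKM in JMJD1B-/- replicate 2 and at 0 in the other libraries. The smallest whole numbers of reads that fit are 7, 4, 0 and 0, and larger numbers such as 14 and 8 for the first 2 fit as well. Peg12, from the same cluster, had 1.63 and 1.87 RPKM in WT and 1.24 and 1.39 RPKM in JMJD1B-/- HSPCs. Its libraries did not overlap, and its log2 fold change of −0.38 (SE 0.50) was smaller than its error. Inpp5f, an inositol phosphatase gene with an imprinted variant, had 7.03 and 7.14 RPKM in WT and 4.68 and 5.09 RPKM in JMJD1B-/- HSPCs, with a log2 fold change of −0.53 (SE 0.27, adjusted p = 0.560 in limma).

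Genes that keep imprints in place were measured next. The list holds 20 genes, among them maintenance DNA methylation, the KAP1 corepressor with its zinc finger partners, the insulator protein CTCF and H3K9 methyltransferases. Of the 17 tested, 0 had an unadjusted p under 0.05, beside 10.1% of all genes, and the median log2 fold change was −0.07. Zfp57, Dnmt3l and Dppa3 have no entry and were not analysed here. Dnmt1, the maintenance DNA methyltransferase, had 98.1 and 107 RPKM in WT and 102 and 104 RPKM in JMJD1B-/- HSPCs. Trim28, which encodes KAP1, had 96.9 and 107 RPKM in WT and 84.1 and 111 RPKM in JMJD1B-/- HSPCs. The genotypes overlapped for both. Rbbp4, a histone-binding subunit of several chromatin complexes, had 88.3 and 144 RPKM in WT and 87.2 and 68.2 RPKM in JMJD1B-/- HSPCs, and WT replicate 2 was its high library. The genotypes did not overlap for Rbbp4 (log2 fold change −0.55, SE 0.26, adjusted p = 0.537 in limma). Leaving out single libraries gave −0.90 to −0.19. Its unadjusted p was under 0.05 in 4 of 13 alternatives, among them quantile normalization and the replicate block.

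Igf2r and Grb10 act on IGF and insulin signalling. Of 30 genes of that pathway, 19 were tested, 2 were lower and 0 were higher at an unadjusted p under 0.05 (10.1% of all genes), and the median log2 fold change was −0.07. Igfbp4, a secreted protein that binds IGFs, had 40.0 and 29.4 RPKM in WT and 19.9 and 17.4 RPKM in JMJD1B-/- HSPCs. The libraries did not overlap, with a log2 fold change of −0.88 (SE 0.22, adjusted p = 0.274 in limma). Without JMJD1B-/- replicate 1 it was −0.97 and was called (adjusted p = 0.0354 in limma, in a range up to 1). Insr, the insulin receptor to which Grb10 binds, had 13.9 and 14.1 RPKM in WT and 9.65 and 9.53 RPKM in JMJD1B-/- HSPCs. The replicates of Insr were close to each other, and the JMJD1B-/- mean was 68.6% of the WT mean (log2 fold change −0.54, SE 0.21, adjusted p = 0.474 in limma).

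The most abundant genes of the IGF and insulin list overlapped between the genotypes. They were Nedd4, a ubiquitin ligase that binds Grb10, with 111 to 132 RPKM over the 4 libraries, Akt1, a kinase of the pathway, with 41.7 to 55.2 RPKM, and Grb2, an adaptor, with 25.7 to 41.3 RPKM.

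The product of Gnas works with other G protein subunits, adenylyl cyclases and protein kinase A. Of 36 genes of this list, 31 were tested, 1 was higher and 0 were lower at an unadjusted p under 0.05 (10.1% of all genes), and the median log2 fold change was −0.07. The higher gene was Gng5, a G protein gamma subunit, with 45.1 and 39.0 RPKM in WT and 61.8 and 57.5 RPKM in JMJD1B-/- HSPCs. Its libraries did not overlap (log2 fold change 0.51, SE 0.18, adjusted p = 0.427 in limma). Prkar1a, the regulatory subunit of protein kinase A, was at 81.3 to 99.6 RPKM over the 4 libraries. Gnai2, an inhibitory alpha subunit, was at 73.7 to 98.2 RPKM and Gnb2, a beta subunit, at 55.7 to 72.4 RPKM. The genotypes overlapped for these 3 genes.

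Impact acts on the GCN2 branch of the stress response that lowers translation by phosphorylating eIF2. Of 24 genes of this list, 23 were tested, and 2 were higher and 1 was lower at an unadjusted p under 0.05 (10.1% of all genes), with a median log2 fold change of 0.12. Eif2b1, a subunit of the exchange factor for eIF2, had 9.78 and 14.3 RPKM in WT and 18.97 and 25.5 RPKM in JMJD1B-/- HSPCs. Both JMJD1B-/- libraries were higher, with a log2 fold change of 0.89 (SE 0.27, adjusted p = 0.366 in limma), which was 1.10 and called without JMJD1B-/- replicate 1 (adjusted p = 0.0371 in limma, in a range up to 1). Sesn2, a stress-induced inhibitor of growth signalling, had 2.33 and 1.92 RPKM in WT and 3.48 and 4.69 RPKM in JMJD1B-/- HSPCs (log2 fold change 0.90, SE 0.38, adjusted p = 0.486 in limma). Ppp1r15a, which directs a phosphatase to eIF2, had 38.2 and 52.5 RPKM in WT and 29.2 and 31.9 RPKM in JMJD1B-/- HSPCs (log2 fold change −0.55, SE 0.21, adjusted p = 0.457 in limma).

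The abundant genes of the GCN2 list overlapped between the genotypes. Atf4, the transcription factor of this response, had 57.7 and 66.9 RPKM in WT and 54.0 and 65.6 RPKM in JMJD1B-/- HSPCs. Eif2s3x, a subunit of eIF2, had 50.5 and 88.1 RPKM in WT and 67.8 and 76.2 RPKM in JMJD1B-/- HSPCs. It overlapped through WT replicate 2 alone. Ppp1r15b, a relative of Ppp1r15a, ranged from 45.6 to 59.8 RPKM over the 4 libraries. The 6 pathway genes with an unadjusted p under 0.05 each lost it without at least 1 of the WT libraries. Insr, Gng5 and Sesn2 lost it without either, Igfbp4 and Eif2b1 without WT replicate 1 and Ppp1r15a without WT replicate 2. The log2 fold change of Ppp1r15a fell to −0.32 there, while that of Insr was −0.55 and −0.53 without WT replicates 1 and 2. Ppp1r15a also lost it without JMJD1B-/- replicate 1 and Sesn2 without JMJD1B-/- replicate 2. With the gene-by-gene test it was lost for Igfbp4, Eif2b1, Ppp1r15a and Sesn2, without a trend for Gng5 and Ppp1r15a, and with the replicate block for Insr and Sesn2.

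Markers of blood lineages differed between the same libraries. Of 16 HSPC markers, 16 were listed, among them Kit at 66.9, 62.5, 51.6 and 92.7 RPKM in WT replicates 1 and 2 and JMJD1B-/- replicates 1 and 2, and Myb was the most abundant. The listed HSPC markers summed to 697 and 654 RPKM in WT and 495 and 677 RPKM in JMJD1B-/- HSPCs, and 8 of them were lower in each JMJD1B-/- library than in either WT library, where 22.7% of all genes were lower and 20.1% higher. Of 12 erythroid markers, 12 were higher in each JMJD1B-/- library than in either WT library, with sums of 585 and 876 RPKM in WT and 1637 and 2748 RPKM in JMJD1B-/- HSPCs and Car1 as the most abundant. JMJD1B-/- replicate 2 had the highest erythroid sum and the highest Grb10, while Igf2r was highest in JMJD1B-/- replicate 1. A link between these values was not tested.

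All 8 listed basophil and mast cell markers, of 10, were lower in each JMJD1B-/- library than in either WT library, where 22.7% of all genes were. Their sums were 579 and 629 RPKM in WT and 141 and 93.3 RPKM in JMJD1B-/- HSPCs. Prss34 was the most abundant of these markers in both WT libraries and passed the adjusted threshold (adjusted p = 0.00637 in limma). Mcpt8 led in JMJD1B-/- replicate 1 (41.0 RPKM) and Gata2 in JMJD1B-/- replicate 2 (46.9 RPKM). Of 10 megakaryocyte markers, led by Pf4, 7 were lower in the same sense, and they summed to 726 and 663 RPKM in WT and 283 and 410.5 RPKM in JMJD1B-/- HSPCs. Of 14 granulocyte markers, 12 were listed and 10 tested, of which 6 were lower and 2 higher in that sense, beside 22.7% and 20.1% of all genes. Mpo was the most abundant, Prtn3 passed the adjusted threshold by a narrow margin, and the sums were 304 and 207 RPKM in WT and 98.4 and 59.1 RPKM in JMJD1B-/- HSPCs. Neither Prss34 nor Prtn3 was called without a WT library. The cell types in the purified HSPCs were not counted in these data, and the part of these marker differences in the values of the imprinted genes was not tested.

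Of 12 monocyte and macrophage markers 9 were listed, led by Ccr2 in mean RPKM over the 4 libraries. They summed to 149 and 164 RPKM in WT and 134 and 40.0 RPKM in JMJD1B-/- HSPCs. Irf8 was above Ccr2 in WT replicate 1 and JMJD1B-/- replicate 2. T and NK cell markers (9 of 10 listed, led by Il7r in mean RPKM) summed to 29.6 and 40.5 RPKM in WT and 91.2 and 20.7 RPKM in JMJD1B-/- HSPCs. JMJD1B-/- replicate 1 was the high library, with 11.7 RPKM of Cd3g against no more than 1.66 in the others. Nkg7 was the exception, with 14.0 and 15.3 RPKM in WT and 7.19 and 4.84 RPKM in JMJD1B-/- HSPCs. Of 10 B cell markers 3 were listed, Cd79b, Vpreb3 and Blk. They summed to 3.89 and 2.66 RPKM in WT and 26.9 and 4.34 RPKM in JMJD1B-/- HSPCs. Blk gave 24.6 RPKM of the sum in JMJD1B-/- replicate 1, and Vpreb3 was listed at 0 in 3 libraries. Cd79b was lower in both JMJD1B-/- libraries, with 3.28 and 1.99 RPKM in WT and 1.22 and 0.631 RPKM in JMJD1B-/- HSPCs. Endothelial markers (6 of 8 listed, led by Pecam1) summed to 42.9 and 44.7 RPKM in WT and 23.8 and 15.5 RPKM in JMJD1B-/- HSPCs.

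Stromal cells are a source of Mest and other imprinted transcripts in many organs, so their markers were read beside the paternally expressed genes. Of 12 stromal markers 7 were listed, led by Col1a1 in mean RPKM over the 4 libraries. They summed to 9.67 and 42.4 RPKM in WT and 7.99 and 5.69 RPKM in JMJD1B-/- HSPCs. Outside WT replicate 2, Pdgfrb was higher than Col1a1. Bglap, the bone-forming cell marker, was listed at 0 in JMJD1B-/- replicate 1. WT replicate 2 had the highest stromal sum, with 15.7 RPKM of Col1a1 and 5.92 RPKM of Cxcl12 against no more than 2.13 and 1.26 RPKM elsewhere. Pdgfrb was lower there than in WT replicate 1, with 5.11 and 3.77 RPKM in WT and 2.74 and 3.17 RPKM in JMJD1B-/- HSPCs, and so were Mest and Ndn. The other 6 stromal markers were higher in WT replicate 2 than in WT replicate 1. The part of stromal RNA in the values of Mest and Ndn was not tested.

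Promoter sequences were read because imprints are written on CpG dinucleotides. RefSeq promoters of assembly GRCm38.p6, each of 300 bases around a transcription start, were matched by symbol for 8 of the 10 genes, with 14 promoters in all. H19 and Impact were not matched. The 14 promoters held 8 to 45 CpG dinucleotides each, where the median over 32851 promoters of the table was 7. The letters TGCCGC, the core of the motif bound by the imprint-keeping protein ZFP57 when methylated, were searched on both strands (GCGGCA on the other). They contain a CpG themselves. They were found in 4 of the 14 promoters and in 11.6% of all promoters of the table. Of the 4, 2 are overlapping promoters of Mest that share the same letters, and the others belong to Grb10 and Plagl1. A match is a description of the sequence and does not show binding.

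The promoters of 4 listed genes whose genotypes did not overlap are printed from 5′ to 3′ with every CpG in capitals. That of Mest (chr6:30737800-30738099, GRCm38.p6, plus strand) lies in a region that is methylated on the maternal copy, as is the promoter of Ndn (chr7:62348027-62348326, plus strand). The Mest promoter has 17 CpG and 2 matches of the hexamer, and that of Ndn has 11 CpG and 0 matches. The Igf2r promoter (chr17:12769657-12769956, minus strand) has 34 CpG and 0 matches. The upstream promoter of Grb10 (chr11:12037371-12037670, minus strand) has 45 CpG, more than 98.1% of all promoters of the table, and 1 match. For the promoters of Mest, Ndn and Igf2r, 68.6%, 58.6% and 92.3% of all promoters had fewer CpG.
Mest: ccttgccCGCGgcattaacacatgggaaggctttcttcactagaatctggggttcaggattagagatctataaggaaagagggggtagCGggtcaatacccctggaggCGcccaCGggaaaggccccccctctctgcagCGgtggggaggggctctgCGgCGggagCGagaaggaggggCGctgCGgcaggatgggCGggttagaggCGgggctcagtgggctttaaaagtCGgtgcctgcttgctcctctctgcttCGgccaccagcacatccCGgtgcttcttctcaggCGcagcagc
Ndn: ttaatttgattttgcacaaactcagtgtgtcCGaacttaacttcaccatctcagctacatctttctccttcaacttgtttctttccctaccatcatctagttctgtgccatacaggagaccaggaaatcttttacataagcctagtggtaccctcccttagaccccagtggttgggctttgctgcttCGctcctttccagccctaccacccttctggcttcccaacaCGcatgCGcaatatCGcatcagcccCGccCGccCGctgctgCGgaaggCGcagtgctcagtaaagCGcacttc
Igf2r: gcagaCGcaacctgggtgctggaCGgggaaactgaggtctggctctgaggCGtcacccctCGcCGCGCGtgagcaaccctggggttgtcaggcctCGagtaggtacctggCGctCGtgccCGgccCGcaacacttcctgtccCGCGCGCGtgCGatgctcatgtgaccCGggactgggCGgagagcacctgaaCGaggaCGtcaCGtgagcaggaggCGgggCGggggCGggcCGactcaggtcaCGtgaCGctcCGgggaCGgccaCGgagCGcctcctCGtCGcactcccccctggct
Grb10: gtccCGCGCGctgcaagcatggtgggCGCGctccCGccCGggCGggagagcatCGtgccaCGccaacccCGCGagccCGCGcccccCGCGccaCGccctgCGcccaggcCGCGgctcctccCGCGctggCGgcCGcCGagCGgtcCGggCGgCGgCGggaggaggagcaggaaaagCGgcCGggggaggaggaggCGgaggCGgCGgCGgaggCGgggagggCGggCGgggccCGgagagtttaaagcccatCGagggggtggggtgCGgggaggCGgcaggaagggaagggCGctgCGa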

How the data were processed

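PolyA RNA of WT and JMJD1B-/- HSPCs from bone marrow was extracted with a Qiagen RNeasy micro kit and sequenced after library preparation with the TruSeq RNA kit V2, which does not mark strand. The submitters' processing notes name TopHat2, Novoalign and mm9. The counting program and gene annotation are not given in the sources used here. The authors deposited a table of RPKM values with 1 added to each, which was removed. Its 12024 entries cover 11982 names, and 42 names with more than 1 entry were averaged. The other samples of the series, which are ChIP-seq, were not used here.

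Depth was estimated from genes under 3 RPKM, whose values in different libraries form ratios of whole numbers. For JMJD1B-/- replicate 1, the depth first found was lowered, because 84.6% of 104 genes had even read numbers there. The floor of reads and the upper limit for Ndn in that library rest on this step. Of 122 genes with a whole-number fit, the RefSeq lengths of 22 gave the same depth (within 0.2%). Any other depth was given by at most 2 genes. Read numbers of single genes rest on this estimate (tolerance 0.03 reads). They are the smallest whole numbers that fit, and larger ones fit as well. Reads carry no molecular identifiers, so intervals cover counting error only.

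The genotypes were compared as log2(RPKM + 0.1) for genes whose RPKM averaged 0.5 or more, with limma 3.58.1 (R 4.3.3; lmFit, eBayes with a trend, two-sided), with Benjamini-Hochberg adjustment over 11863 genes. This scale understates changes of weakly expressed genes. With 2 against 2 libraries, the smallest p of an exact permutation test is 0.333, so none was run. The fit was tested on simulated data. Alternatives were pseudocounts of 1 and 0.01, no filter, a mean of at least 1 RPKM, median-ratio scaling, quantile normalization, limma without a trend, equal-variance tests gene by gene, a replicate term, and each library left out. Python 3.11.15 was used with scipy 1.17.1, pandas 2.3.3, matplotlib 3.10.9 and numpy 2.4.6.

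The members and lists were chosen with earlier results of these data known. Named were the 10 genes, Kdm3b, and of each list of other imprinted or pathway genes the genes past the adjusted threshold, or else up to 3 of lowest unadjusted p under 0.05, and the 3 of highest mean RPKM. Of the other imprinted genes, each with an unadjusted p under 0.05 was named. Airn, Peg10, Trappc9, Cdkn1c, Phlda2, Zrsr1, H13, Commd1, Snrpn, Snurf, Peg12, Inpp5f, the sex-linked genes and single markers were named after their values were seen. Marker lists were given by their sums, counts, most abundant gene and called genes, in place of the 3 highest and the 3 of lowest p that the rule fixed beforehand asked of each list. Genes were matched by exact symbol.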

Additional observations from a re-analysis of the deposited data

How the results depend on the processing

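At an unadjusted p under 0.05, 2 of the 6 listed imprinted genes passed with all libraries and 1 with the gene-by-gene test, and 0 to 4 passed with each library left out. Of the other imprinted genes 4 passed, against 2 with quantile normalization, 2 with the gene-by-gene test and 0 to 8 with a library left out. Of the pathway genes 6 passed, against 3 to 12 with a library left out. Of all genes 1203 passed, against 300 to 2567 with a library left out. At an adjusted p under 0.05, 5 genes were called, against 18 with a pseudocount of 1, 3 with a pseudocount of 0.01, 3 with a mean of at least 1 RPKM, 1 with either scaling, 0 without a trend, 0 with the gene-by-gene test, 4 and 0 without WT replicates 1 and 2, and 630 and 669 without JMJD1B-/- replicates 1 and 2. A fit without a library assumes that the lone sample of its group varies like the others. The cause of these shifts was not tested.

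With the replicate number as a replicate block, 1485 genes passed at an unadjusted p under 0.05 and 256 were called. Of the 6 listed imprinted genes 3 had an unadjusted p under 0.05, as had 4 of the 33 other imprinted genes tested, and 0 were called. Igfbp4 (adjusted p = 0.0205 in limma) and Eif2b1 (adjusted p = 0.0431 in limma) were called under the block. Nespas, Peg13, Insr and Sesn2 rose above an unadjusted p of 0.05 there. Grb10, Cd81 and Rbbp4 fell below it (unadjusted p = 0.0391, 0.0216 and 0.0172 in limma). The difference between the replicates of WT and that of JMJD1B-/- HSPCs had a correlation across genes of −0.054. Whether the numbers mark litters or batches is not given in the sources used here. This correlation cannot decide it, since it rests on a single pair of libraries per genotype.

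Kdm3b had a log2 fold change of −2.63 with median-ratio scaling, −2.60 with quantile normalization and −2.65 without a trend and with the gene-by-gene test, where it was not called, and −2.82 to −2.47 with a library left out. The median of the listed imprinted genes was −0.34 to −0.14 with a library left out. Among 33 named genes under 13 alternatives, 15 genes turned sign under at least 1 of them and 6 passed the adjusted threshold anew. The genes that turned sign lay within 0.24 of 0 with all libraries. With quantile normalization these were Dnmt1 (−0.089, from 0.01) and Gnb2 (−0.019, from 0.07). With a library left out, the log2 fold change ran from −0.15 to 0.026 for Gnas, −0.33 to 0.093 for Mcts2, −0.011 to 0.48 for Kcnq1ot1, −0.15 to 0.067 for Ube3a, −0.057 to 0.074 for Dnmt1, −0.27 to 0.13 for Trim28, −0.18 to 0.067 for Nedd4, −0.25 to 0.12 for Akt1, −0.40 to 0.28 for Grb2, −0.24 to 0.055 for Prkar1a, −0.28 to 0.13 for Gnai2, −0.12 to 0.25 for Gnb2, −0.29 to 0.51 for Eif2s3x, −0.20 to 0.078 for Atf4 and −0.020 to 0.33 for Ppp1r15b. The median of all genes was −0.02 with all libraries, 0.09 without JMJD1B-/- replicate 1 and −0.10 without JMJD1B-/- replicate 2. Ndn could not be tested with a mean of at least 1 RPKM. With 0 reads of Ndn in JMJD1B-/- replicate 1, a level up to 0.366 RPKM is allowed there. Among the markers, Prss34 and Prtn3 were called with all libraries. Neither was called with median-ratio scaling, with quantile normalization, without a trend, with the gene-by-gene test or without either WT library, and Prtn3 also not with a pseudocount of 0.01 or a mean of at least 1 RPKM.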
